A study of Homo sapiens with 14 samples.

Results

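SSTR4, THBD and CD93 are the 3 protein-coding genes of a stretch of chromosome 20 in which the MM.1S multiple myeloma (MM) line carried many open chromatin peaks and the RPMI8226 MM line carried few. The stretch was taken from 22.6 Mb to 23.25 Mb of the chromosome (hg38 build, 650 kb). It was chosen because earlier work on the same peak lists had found in it an unbroken run of MM.1S peaks without an RPMI8226 counterpart, so the sharing of peaks inside it is given as a description and was not tested. It held 41 of the 72802 reference peaks of MM.1S and 14 of the 79969 reference peaks of RPMI8226. In the middle of the stretch, 21 consecutive MM.1S peaks over 384 kb had no RPMI8226 peak among them. The promoters of THBD and CD93 carried peaks in MM.1S only, and the promoter of SSTR4 carried a peak in neither line.

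Accessibility was measured by Omni-ATAC, in which a transposase cuts and tags open chromatin, in 14 libraries of sorted MM cells. The 9 MM.1S libraries comprised 3 of cells in monoculture (MONO), 3 from the upper transwell (TSW) and 3 from the lower chamber, where the cells shared the well with HS5 stromal cells (CO). RPMI8226 had 1 MONO, 2 TSW and 2 CO libraries. MM.1S and RPMI8226 are established human MM lines, each a single line and so 1 genetic background, and HS5 is a human bone marrow stromal line that the methods describe as present at a low level in the sorted CO cells. Each line had 1 list of reference peaks, and each peak had 1 whole number, read here as support, the count of that line's libraries with the peak. Support ran from 3 to 9 in MM.1S and from 3 to 5 in RPMI8226. The lists are not equally strict, since 3 libraries are a smaller part of 9 than of 5. By the study's supplement, all MM.1S libraries but 1 MONO library had more read pairs than any RPMI8226 library. The part of read totals in the results was not tested. Each library is a bulk sample, in which a site open in few cells and a site weakly open in all cannot be told apart. A list mixes the 3 culture conditions, so neither a value per library nor a change between conditions could be given. A peak was called shared when at least 1 bp of it lay in a peak of the other list, and otherwise line-only.

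Thrombomodulin, the product of THBD, is a membrane protein of the endothelium that binds thrombin and turns it from a clotting enzyme into an activator of protein C, an anticoagulant protease. CD93 is a related membrane receptor of endothelial and myeloid cells, which is also found on long-lived plasma cells. Both belong to the group XIV C-type lectins. SSTR4 is a G protein-coupled receptor for the peptide hormone somatostatin. Open chromatin at a promoter or a distal site marks DNA that regulatory proteins can reach, and does not by itself say that a gene is transcribed.

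Sequences were taken for display from the sites called in every MM.1S library and without a peak in RPMI8226. There were 4 such sites in the run away from promoters. The central 200 bp of 3 of them are printed from the hg38 sequence, with capitals marking a match to any of 15 motifs searched on both strands.
Centre of chr20:22752192-22753027, shown chr20:22752510-22752709, + strand: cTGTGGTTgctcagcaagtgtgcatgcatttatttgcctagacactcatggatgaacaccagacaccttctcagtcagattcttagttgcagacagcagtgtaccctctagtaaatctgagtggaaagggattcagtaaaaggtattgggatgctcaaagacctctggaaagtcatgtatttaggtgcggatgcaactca
Centre of chr20:22833851-22834370, shown chr20:22834011-22834210, + strand: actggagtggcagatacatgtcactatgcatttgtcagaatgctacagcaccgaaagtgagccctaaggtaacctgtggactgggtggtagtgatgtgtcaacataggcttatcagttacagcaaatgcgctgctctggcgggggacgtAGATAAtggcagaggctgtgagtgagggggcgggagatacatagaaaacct
Centre of chr20:23116557-23117050, shown chr20:23116704-23116903, + strand: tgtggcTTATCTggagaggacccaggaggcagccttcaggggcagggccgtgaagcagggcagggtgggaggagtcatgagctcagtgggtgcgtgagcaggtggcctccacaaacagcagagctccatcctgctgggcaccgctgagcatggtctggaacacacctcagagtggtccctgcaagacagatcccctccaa
The capitals mark a RUNX match (TGTGGTT) in the first site, a GATA match (AGATAA) in the second, and a GATA match on the opposite strand in the other.

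The promoters that RefSeq places in the stretch show where annotated starts and peaks met. RefSeq windows run from 250 bp before to 50 bp after a start (GRCh38.p14). The window of SSTR4 is shown as the protein-coding start without a peak in either line, LOC105372568 as the non-coding start inside the MM.1S-only run that lay in a peak, and LINC03125 as a non-coding gene with one start in a shared peak and another in an MM.1S-only peak.
SSTR4, chr20:23035062-23035361, + strand: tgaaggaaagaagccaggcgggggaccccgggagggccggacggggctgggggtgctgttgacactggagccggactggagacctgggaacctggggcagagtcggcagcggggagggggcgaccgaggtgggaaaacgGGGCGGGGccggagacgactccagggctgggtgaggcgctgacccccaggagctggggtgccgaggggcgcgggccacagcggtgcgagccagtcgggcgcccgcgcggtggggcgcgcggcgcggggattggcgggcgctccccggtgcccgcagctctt
LOC105372568, chr20:22805522-22805821, + strand: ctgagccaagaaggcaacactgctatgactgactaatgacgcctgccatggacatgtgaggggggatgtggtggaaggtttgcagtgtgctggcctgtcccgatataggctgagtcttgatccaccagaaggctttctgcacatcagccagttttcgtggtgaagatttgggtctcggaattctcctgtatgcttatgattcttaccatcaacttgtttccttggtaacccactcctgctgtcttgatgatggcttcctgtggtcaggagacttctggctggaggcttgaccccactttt
LINC03125, chr20:23147853-23148152, + strand: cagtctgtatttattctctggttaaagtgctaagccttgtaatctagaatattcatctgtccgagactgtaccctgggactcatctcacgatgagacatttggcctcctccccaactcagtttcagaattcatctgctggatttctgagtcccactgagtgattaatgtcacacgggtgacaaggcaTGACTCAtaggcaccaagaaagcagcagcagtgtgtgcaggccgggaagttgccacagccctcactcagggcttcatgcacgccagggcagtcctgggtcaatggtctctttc
LINC03125, chr20:23179885-23180184, + strand: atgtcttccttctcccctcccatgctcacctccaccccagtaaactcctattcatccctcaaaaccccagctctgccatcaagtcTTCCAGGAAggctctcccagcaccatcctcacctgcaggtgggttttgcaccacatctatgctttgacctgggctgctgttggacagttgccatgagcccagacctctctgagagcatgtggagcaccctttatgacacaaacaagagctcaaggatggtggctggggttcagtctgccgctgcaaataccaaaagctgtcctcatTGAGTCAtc
Capitals mark a GC box (GGGCGGGG) in SSTR4, an AP-1 match (TGACTCA) in the first LINC03125 window, and a STAT match (TTCCNGGAA) followed by an AP-1 match on the opposite strand in the second. LOC105372568 held no match. Among 35116 RefSeq promoter windows, 22.8% held the GC box, 4.95% the AP-1 motif and 1.15% the STAT motif. The SSTR4 window had a GC content of 76.0% and 33 CpG dinucleotides, a number that 17.2% of RefSeq promoters reached.

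**Figure D1:**
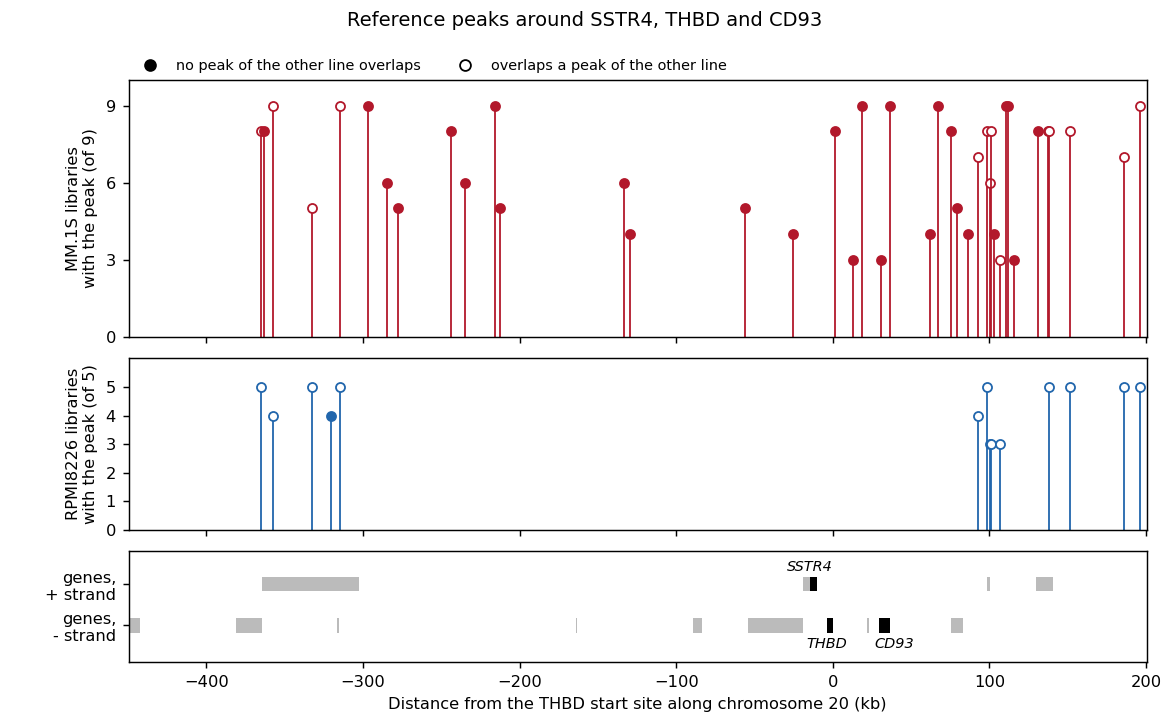
Support of each reference peak in the stretch, as the number of libraries with the peak, against distance from the THBD start site in kb along chromosome 20, for MM.1S (upper panel, 9 libraries) and RPMI8226 (middle panel, 5 libraries). Filled points had no overlapping peak in the other line, open points had one, and the lower panel shows GENCODE genes on each strand (black, protein-coding; grey, other). The 21 consecutive filled points of MM.1S face a part of the RPMI8226 panel without points.

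THBD is a gene of 1 exon on the minus strand (ENSG00000178726.7, chr20:23045633-23049672). In MM.1S a peak of 1011 bp, chr20:23050325-23051335, lay 653 bp upstream of its start site and was called in 8 of 9 libraries. It had a GC content of 62.5% and 65 CpG dinucleotides. No MM.1S peak lay within the gene body. In RPMI8226 the nearest peak to the THBD start site was 92.6 kb away. The 100 kb on either side of the start site held 15 MM.1S peaks and 2 RPMI8226 peaks.

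CD93 is a gene of 2 exons on the minus strand (ENSG00000125810.10, chr20:23079360-23086324). A 717 bp MM.1S peak, chr20:23085874-23086590, covered its start site and was called in all 9 libraries. Its GC content was 63.0% and it held 36 CpG dinucleotides. A second MM.1S peak of 222 bp, chr20:23080599-23080820, overlapped an exon of CD93 and was called in 3 libraries, the lowest support in the list. The nearest RPMI8226 peak to the CD93 start site was 56.0 kb away, and the 100 kb on either side held 22 MM.1S and 5 RPMI8226 peaks. By GC content and CpG number the THBD and CD93 promoter peaks stood above the other 19 peaks of the run, which had a GC content of at most 60.1% and at most 13 CpG dinucleotides.

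SSTR4 is a gene of 1 exon on the plus strand (ENSG00000132671.6, chr20:23035312-23039237). No peak of either line lay within 2500 bp of its start site or in its body. The nearest MM.1S peak, chr20:23023951-23024268, lay 11.0 kb away with support 4, and the nearest RPMI8226 peak lay 107 kb away. The 100 kb on either side of its start site held 11 MM.1S peaks and 0 RPMI8226 peaks. SSTR4 was therefore the member without a promoter peak, although its start site lay between 2 MM.1S peaks of the run. Over the whole lists, promoter peaks lay at 76.8% of 20046 protein-coding genes in MM.1S and 71.8% in RPMI8226, given as background to the 2 of 3 members in MM.1S and 0 of 3 in RPMI8226, from which nothing is read because the members were chosen for this pattern.

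Of the 41 MM.1S peaks in the stretch, 28 (68.3%) were MM.1S-only, where the share over the whole list was 35.4%. Of the 14 RPMI8226 peaks, 1 was RPMI8226-only, where the share over its list was 38.0%. These shares are what the stretch was chosen for and nothing is read from them. MM.1S peaks covered 22982 bp (3.54% of the stretch) and RPMI8226 peaks 5267 bp (0.810%). For description the stretch was cut into 3 segments, the run of consecutive MM.1S-only peaks and what lay on each side of it. All MM.1S peaks of the middle segment are thus MM.1S-only by the way it was cut. The contrast in sharing between the segments follows from this cut and was not tested.

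The first 152 kb held 5 peaks of each line, of which 4 were shared. Both lines had a peak within 2500 bp of the start of the non-coding gene LINC01747 (MM.1S chr20:22683967-22684628, support 8, and RPMI8226 chr20:22683999-22684357, support 5). Shared peaks also lay in introns of the non-coding ENSG00000283072, among them the MM.1S peak chr20:22734821-22735519 (support 9) and the RPMI8226 peak chr20:22734949-22735405 (support 5), near the pseudogene KRT18P3. The other shared pairs of this segment were chr20:22691564-22692107 in MM.1S (support 9) with chr20:22691744-22692226 in RPMI8226 (support 4), and chr20:22716819-22717079 (support 5) with chr20:22716751-22717078 (support 5). Its MM.1S-only peak was chr20:22686184-22686512 (support 8). The one RPMI8226-only peak of the whole stretch, chr20:22729263-22729469, was 207 bp wide with support 4. Here the lines had equal numbers of peaks.

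The next 384 kb, chr20:22752192-23136138, held the 21 MM.1S-only peaks. From left to right the distal peaks before THBD began with chr20:22752192-22753027 (support 9), chr20:22764687-22765119 (support 6) and chr20:22771771-22772096 (support 5). A pair followed at chr20:22805073-22805947 (support 8) and chr20:22814231-22815262 (support 6), the latter the widest peak of the stretch at 1032 bp. These 5 peaks had support of 5 to 9 and included the start of LOC105372568.

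Further towards THBD lay chr20:22833851-22834370 (support 9) and chr20:22836950-22837175 (support 5). After an empty 79.0 kb came chr20:22916167-22916680 (support 6) and chr20:22919556-22920089 (support 4), and after another 72.9 kb came a peak of support 5 and then chr20:23023951-23024268 (support 4). The last of these lay in an intron of the non-coding ENSG00000230492. The peaks were thus sparse and weakly supported in the part of the run before the 3 coding genes, with support of at most 6 from chr20:22836950 up to the THBD promoter.

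Between the THBD and CD93 promoters lay chr20:23062250-23062570 (support 3) and a peak of support 9, in addition to the peak in the CD93 exon. Counting from the THBD promoter peak to the CD93 promoter peak, 5 MM.1S peaks lay within 36.3 kb, each less than 12.5 kb from the next. Beyond CD93 the run continued with chr20:23111345-23111813 (support 4) and chr20:23116557-23117050 (support 9). The non-coding gene LINC00656 held chr20:23124932-23125652 (support 8) and chr20:23128551-23128893 (support 5) in exons, and the run ended with chr20:23135668-23136138 (support 4). Peaks called in all 9 libraries were thus found on both sides of the coding genes and between them.

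The last 114 kb held 15 MM.1S and 9 RPMI8226 peaks, and all 9 of the latter were shared. It opened with chr20:23142270-23142900 in MM.1S (support 7) and chr20:23142283-23142677 in RPMI8226 (support 4), which is the RPMI8226 peak nearest to all 3 coding genes. At the first LINC03125 start printed above, MM.1S had chr20:23147911-23148548 (support 8) and RPMI8226 had chr20:23147886-23148594 (support 5). At the second start, MM.1S had chr20:23180058-23181026 (support 8) and RPMI8226 had no peak within 7607 bp. The remaining LINC03125 start, at position 23187961, lay in shared peaks again with support 8 and 5. The peaks at this start were chr20:23187758-23188184 in MM.1S and chr20:23187742-23188042 in RPMI8226. The 3 starts of 1 non-coding gene therefore included 2 open in both lines and 1 open in MM.1S only.

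The other MM.1S-only peaks of the last segment were a pair on either side of the pseudogene RNA5SP478, chr20:23159830-23160365 and chr20:23161031-23161824, both called in all 9 libraries, together with chr20:23152430-23152706 (support 4), chr20:23165407-23165731 (support 3) and chr20:23186707-23187299 (support 8). With the end of the run, all but the last of these 5 belonged to a close series of 14 MM.1S peaks over 54.4 kb, chr20:23111345-23165731, of which 9 were MM.1S-only, and the same span held 5 RPMI8226 peaks. The outermost shared peaks of this segment, chr20:23235354-23235838 and chr20:23245194-23246169 in MM.1S, had support 7 and 9 and met chr20:23235359-23235674 and chr20:23245637-23245982 in RPMI8226, both of support 5. The remaining shared pairs lay between these and the start of the segment. In MM.1S they were chr20:23149620-23150170 (support 6), chr20:23150403-23151255 (support 8), chr20:23156227-23156544 (support 3) and chr20:23200757-23201359 (support 8). Their RPMI8226 partners were chr20:23149990-23150147 (support 3), chr20:23150554-23151068 (support 3), chr20:23156127-23156544 (support 3) and chr20:23200938-23201212 (support 5). The first 3 partners were the only RPMI8226 peaks of the stretch at the lowest support.

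Of the 21 peaks of the run, 5 (23.8%) were called in all 9 libraries, against 27.5% of all MM.1S-only peaks and 52.0% of all MM.1S peaks. Because each condition had 3 libraries, a peak with support above 6 was called in some library of each of MONO, TSW and CO. This held for 8 of the 21, among them both promoter peaks, and for 52.1% of all MM.1S-only peaks. For the other 13, including the CD93 exon peak, the lists do not say in which conditions the peak was found. Over the whole stretch, 10 of 41 MM.1S peaks (24.4%) had full support, the call in all 9 libraries. In RPMI8226, 8 of 14 peaks (57.1%) were called in all 5, against 64.1% of its list.

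Peaks of the stretch were of ordinary width. The MM.1S median was 536 bp, with quartiles of 343 and 699 bp, and the median of the whole list was also 536 bp. The RPMI8226 median was 352.5 bp, beside 362 bp for its list. Width grows with support, so each peak was also set beside the whole-list median at its own support. By that measure 25 of 41 MM.1S peaks were wider, and 17 of the 28 MM.1S-only peaks were wider than the MM.1S-only median. The 2 promoter peaks fell on different sides, since the THBD peak (1011 bp) exceeded the median of 502 bp at support 8 and the CD93 peak (717 bp) fell short of the 732 bp at support 9. Of the 13 shared pairs, 10 had the wider peak in MM.1S, as the whole lists do by their medians.

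**Figure D2:**
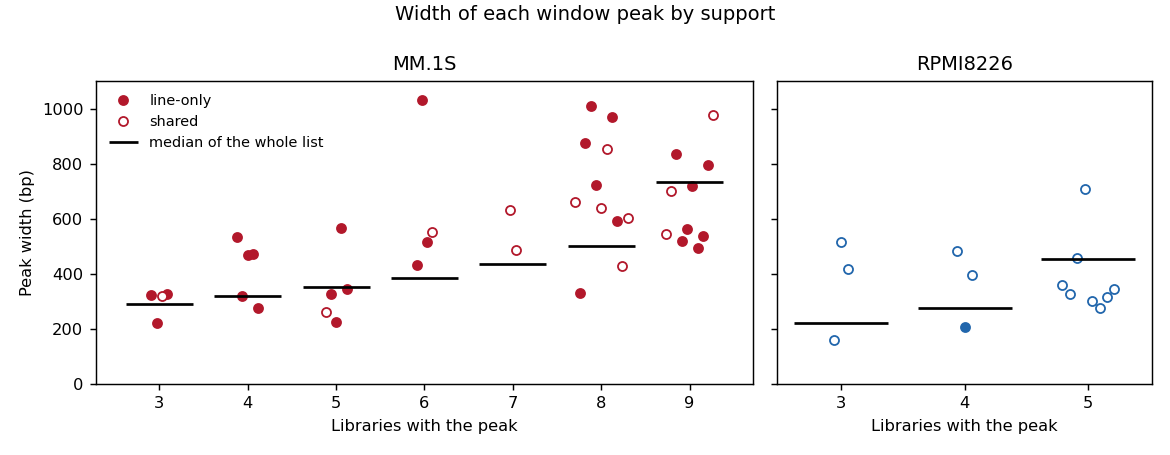
Width in bp of each peak in the stretch against its support, the number of libraries with the peak, for MM.1S (left) and RPMI8226 (right). Filled points are line-only and open points shared, and black bars give the whole-list median at each support. At support 9, 7 of the 10 MM.1S peaks were MM.1S-only, and the bar at 732 bp had most points beneath it.

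In RPMI8226 the run coincided with a gap of 407 kb between neighbouring peaks, chr20:22735406-23142282. On chromosome 20, 6 of 2223 gaps were at least as long, and on chromosomes 1 to 22 and X, 550 of 79740. The number of MM.1S peaks inside separated it from the others. A median of 3 MM.1S peaks started within such a gap, 68 gaps held none, and 22 started within this one, counting the first shared peak on the right, which began 13 bp before its RPMI8226 partner. No other gap of this length held as many. The gap was part of how the stretch was found, so this is its rank and not a test.

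The 1 Mb on each side was counted for comparison. MM.1S had 63.1 peaks per Mb in the stretch, 39.0 in the left flank and 32.0 in the right flank, and 34.7 over chromosome 20. RPMI8226 had 21.5 in the stretch, 23.0 in the left flank, 36.0 in the right flank and 34.5 over chromosome 20. In the left flank 24 of 39 MM.1S peaks (61.5%) were MM.1S-only, a share near that of the stretch, and in the right flank 9 of 32 (28.1%), a share below that of the whole list. RPMI8226-only peaks made up 8 of 23 (34.8%) and 13 of 36 (36.1%) in the left and right flanks, both near the share over the list.

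**Figure D3:**
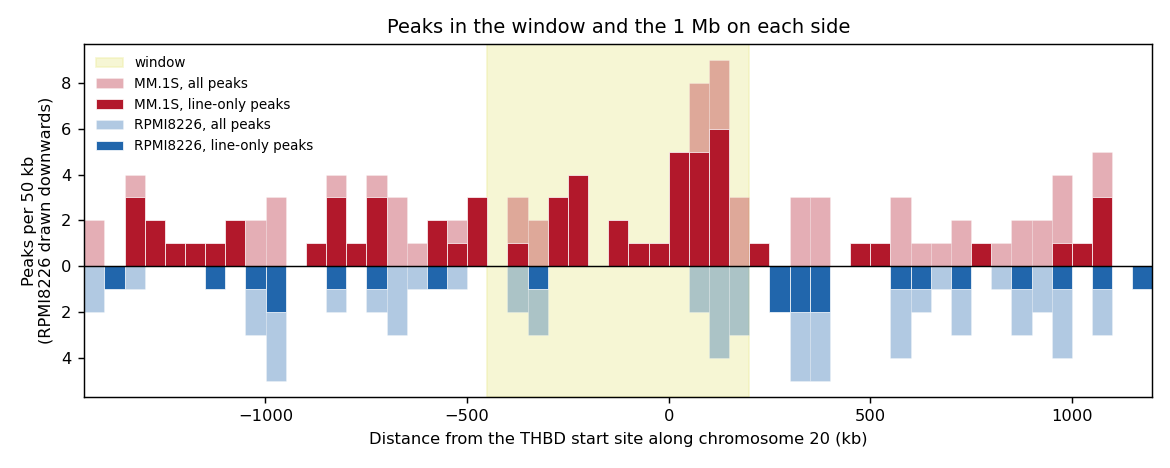
Number of peaks per 50 kb in the stretch (shaded) and the 1 Mb on each side, against distance from the THBD start site in kb along chromosome 20, with MM.1S drawn upwards and RPMI8226 downwards. Dark bars count line-only peaks and pale bars all peaks. MM.1S reached 9 peaks per 50 kb beyond CD93, and 6 of the 13 bins of the stretch held MM.1S peaks and no RPMI8226 peak.

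The left flank held 2 protein-coding genes and the right flank 14. In the left flank both protein-coding genes bore an MM.1S-only promoter peak: PAX1, a paired-box transcription factor, with support 8, and FOXA2, a forkhead transcription factor, with support 6. The 14 other annotated genes of the left flank had promoter peaks at 5 in MM.1S and at 5 in RPMI8226. In the right flank promoter peaks lay at 7 of 14 protein-coding genes in each line. NXT1, GZF1, NAPB, CSTL1, CST9 and CST3, the last encoding the protease inhibitor cystatin C, had support 9 and 5, and GGTLC1 had 9 and 3. The remaining cystatin genes of that cluster, CST1, CST2, CST4, CST5, CST8, CST9L and CST11, had no promoter peak in either line. Just outside the stretch lay MM.1S-only peaks on both sides, chr20:22597254-22597719 (support 8) in the non-coding gene LNCNEF and chr20:23257375-23258012 (support 7). The nearest RPMI8226 peaks outside were chr20:22507733-22508067 (support 5, shared) and chr20:23320456-23320795 (support 4, RPMI8226-only).

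Within 2500 bp of a GENCODE start site lay 13 of the 41 MM.1S peaks, against 39.2% of the list, and 6 of the 14 RPMI8226 peaks, against 36.0%. Within the run only the THBD and CD93 peaks did. By the GENCODE position of the peak midpoint, 16 of the 21 peaks were intergenic, 1 was intronic and 4 were exonic. RefSeq also places the LOC105372568 start in a run peak and the LOC105372567 start 714 bp from another. Both of those peaks were counted as distal here. Distal MM.1S-only peaks of the stretch were rich in G and C. Their central 200 bp had a median GC content of 53.0% (quartiles 51.0% and 55.5%, 21 peaks), beside 47.5% over the 17706 distal MM.1S-only peaks of chromosomes 1 to 22 and X. The 7 distal shared MM.1S peaks of the stretch had 53.5%, beside 48.5% over the list, while the whole 650 kb had 43.9%. The higher GC content was therefore found in both classes of peak.

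Motif matches were counted in the same central 200 bp. Among the 21 distal MM.1S-only peaks of the stretch, 16 held at least 1 of the 15 motifs, beside 57.2% of all distal MM.1S-only peaks. The E-box (CAGCTG) was matched in 7, beside 15.4% over the list. The FOX motif (TGTTTAC) was matched in 4, beside 3.49% over the list. AP-1 was matched in 2 (5.65% over the list), GATA in 2 (9.83%), RUNX in 2 (10.7%), MEF2 in 2 (4.15%), the KLF motif (CCACACCC) in 1 (2.40%) and the MAF motif (TGCTGAC) in 1 (5.46%). The ISRE core (GAAANNGAA), held by 13.2% over the list, was matched in none, and neither were CTCF (1.92%), the PU.1-type ETS motif (GAGGAAGT, 1.94%), the ETS motif (CCGGAAGT, 0.288%), the ETS-IRF composite (2.92%), the STAT motif (0.508%) or the GC box (1.74%). Over whole peaks, CTCF was matched in 0 of 41 MM.1S and 0 of 14 RPMI8226 peaks. Some of these motifs can share bases, as the MAF motif with AP-1, RUNX with the E-box, and the ISRE core with the ETS-IRF composite, and a match is a description of letters, not of binding.

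Of the 4 FOX matches 3 are shown with 20 bp on each side, on the strand where the motif reads as given, because this was the motif with the largest ratio of its share here to its share over the list. The E-box exceeded its share by more peaks. The FOX motif was singled out after the counts were seen.
FOX match in chr20:22836950-22837175, shown chr20:22837090-22837136, + strand: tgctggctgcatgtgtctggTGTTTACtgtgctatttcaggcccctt
FOX match in chr20:22919556-22920089, shown chr20:22919791-22919837, + strand: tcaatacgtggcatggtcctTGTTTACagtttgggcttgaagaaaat
FOX match in chr20:23023951-23024268, shown chr20:23024070-23024116, - strand: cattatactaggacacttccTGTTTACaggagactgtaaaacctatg
All 4 lay in the sparse part of the run between the peaks called in all 9 libraries and the THBD promoter, and their peaks had support 4 or 5. FOX matches were not confined to that part. The shared peak chr20:22734821-22735519 (support 9), counted as a promoter peak, held a FOX match in its centre, as did its RPMI8226 partner. Outside the central 200 bp, a FOX match also lay in the last peak of the run, chr20:23135668-23136138 (support 4). None of the 3 distal all-library sites printed earlier held a FOX match. The 2 promoter peaks of the run also differed in their letters, searched here over the whole peak and not its centre. The THBD peak held 1 E-box and 2 ISRE core matches, and the CD93 peak held 1 E-box, 1 ISRE core match and 1 GC box. Over whole peaks, 6 of the 41 MM.1S peaks of the stretch held an ISRE core match, 19 an E-box and 3 a GC box.

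Related genes elsewhere in the genome gave a background for the 3 members, and a gene is called open here when it had a promoter peak. Of the 4 group XIV C-type lectins, THBD and CD93 had a promoter peak in MM.1S only, CD248 in RPMI8226 only (support 4), and CLEC14A in neither. In the protein C pathway 6 of 9 genes had a promoter peak in each line. PROC (protein C itself), PROS1 (its cofactor protein S), F2R (a thrombin receptor) and the clotting factors F5 and F8 were open in every library of both lines. F2, the gene of prothrombin, was open in MM.1S only (support 7), and PROCR, the receptor that holds protein C at the cell surface, in RPMI8226 only (support 5). SERPINA5 and CPB2 had no promoter peak in either line. Of the 9 genes, 5 were thus open in both lines, 1 in MM.1S only, 1 in RPMI8226 only and 2 in neither.

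The genes of 2 CD93 ligands had promoter peaks in both lines, MMRN2 with support 9 and 5 and IGFBP7 with support 9 and 3. In the somatostatin system SSTR4 was 1 of 4 genes without a promoter peak in either line, with SST, SSTR1 and SSTR5. SSTR2 was open in every library of both lines and SSTR3 in all 5 RPMI8226 libraries only. Of 5 genes listed as regulators of THBD, KLF2, RARA, HSF1 and ETS1 were open in every library of both lines, and KLF4, a Krüppel-like factor, in all 9 MM.1S libraries and in no RPMI8226 peak. The lists are short, the lectin and somatostatin lists hold the 3 members themselves, and the open share of all protein-coding genes was 76.8% in MM.1S and 71.8% in RPMI8226, so nothing is read from how many genes of a list were open.

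**Figure D4:**
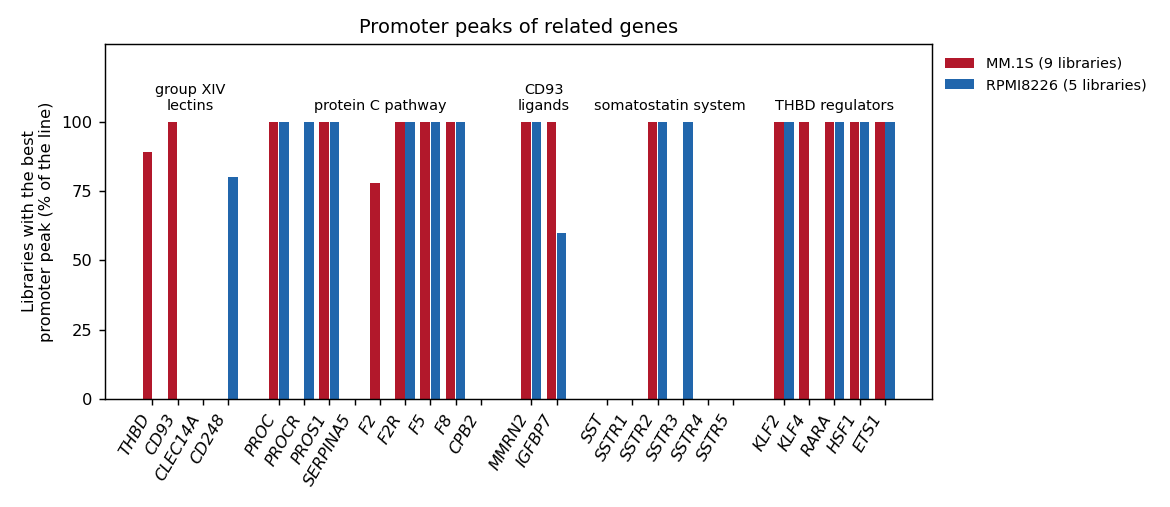
Support of the best promoter peak of each gene as a percentage of the libraries of its line (9 for MM.1S, 5 for RPMI8226), for genes related to THBD, CD93 and SSTR4. Missing bars stand for no promoter peak, as for SSTR4 in both lines, and THBD, CD93, F2 and KLF4 have a bar in MM.1S alone.

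Markers of cells that use THBD and CD93, and of the stromal cells in the cultures, were read in the same way, beside the 76.8% of all protein-coding genes open in MM.1S and the 71.8% in RPMI8226. All 10 plasma cell markers had promoter peaks in both lines, and all but JCHAIN (support 8) were called in all 9 MM.1S libraries. Of 10 endothelial markers 5 had a promoter peak in MM.1S and 3 in RPMI8226, with VWF (support 9) and KDR (support 5) in MM.1S only and TEK, TIE1, CLDN5, EMCN and ROBO4 in neither. Of 10 monocyte and macrophage markers 5 were open in MM.1S and 9 in RPMI8226, and CSF1R, LYZ, CD33 and S100A8 were open in RPMI8226 only.

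Of 14 stromal markers 10 were open in MM.1S, a share near the 76.8% of all protein-coding genes, and 7 in RPMI8226. SPARC, LOX and TWIST1 were open in all 9 MM.1S libraries and in no RPMI8226 peak, and COL3A1, LUM, THY1 and POSTN were open in neither line. Whether HS5 DNA in the CO libraries had a part in the MM.1S-only peaks was not tested. The THBD and CD93 promoter peaks and 6 more of the run had support above 6, and the lists hold no value per library.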

How the data were processed

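Omni-ATAC libraries of MM.1S (9) and RPMI8226 (5) were assigned to a line and a culture condition by their titles. The authors aligned paired-end reads to hg38 with Bowtie2, dropped multiply mapped and duplicate reads, and called peaks with MACS3. A peak seen in at least 3 libraries of a line entered its reference list. The calling threshold and the joining of boundaries are not given in the sources used here. The deposited lists give, for each peak, a position and a whole number in a unit other than reads, read here as support because it ran from 3 to the number of libraries of the line. They hold no header, read counts or values per library, so they show no sequencing depth. The study lists read totals per library in its supplement, which were higher in most MM.1S libraries than in RPMI8226 and entered no count here. The planned test between conditions was not run, and no p-value or error is given.

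Starts were taken as 0-based and are printed 1-based. No peak lay beyond the hg38 sequences. Peaks were shared at an overlap of 1 bp, and promoters were 2500 bp on either side of GENCODE release 44 starts. Motifs were exact matches on both strands in the central 200 bp of distal peaks, except where whole peaks are named. RefSeq promoter windows lay in the stretch for 12 starts and were matched by symbol. Named were the 3 members, the genes in the stretch, protein-coding genes of the flanks and the members of 9 gene lists, and the peaks of the stretch. The sequences and positions of 2 peaks are not reported here. The members, stretch and lists were chosen with earlier results of these data known. Alternatives were other overlaps, support limits, windows, flanks, promoter and motif sizes. Overlap, promoter and motif counting were tested on simulated data. Python 3.11.15, pandas 2.3.3, NumPy 2.4.6, pysam 0.24.0 and Matplotlib 3.10.9 were used.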

Additional observations from a re-analysis of the deposited data

How the results depend on the processing

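Of 31 alternatives over 13 counts and medians, 24 stayed within 1.5 times the count (10% for medians and densities), and 7 moved further. With peaks called in every library only, MM.1S-only peaks numbered 8 in place of 28. At least 6 libraries left 27 of 41 MM.1S peaks, and all 5 libraries left 8 of 14 RPMI8226 peaks. The median width of MM.1S peaks called in all 9 libraries was 630 bp in place of 536 bp. Promoter peaks in MM.1S numbered 20 with 5000 bp around start sites and 2 with protein-coding transcripts alone, in place of 13. The E-box was matched in 11 whole distal MM.1S-only peaks, beside 29.4% over the list, and the FOX motif in 5, beside 7.47%.

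Each line has 1 list, so there is no spread between cultures to give, and no library can be left out. No paired analysis was possible because the lists carry no value per replicate. A missing RPMI8226 peak means that fewer than 3 of its 5 libraries had a call, and is not evidence of closed chromatin. By the study's supplement, RPMI8226 read totals were below those of most MM.1S libraries, and they entered no count here.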

Other observations

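The peaks around SSTR4 were set beside those around other genes, as a description only, since the stretch was chosen for these same values. Of 19970 protein-coding genes on chromosomes 1 to 22 and X, 543 had no RPMI8226 peak within 100 kb of the start site. These had a median of 1 MM.1S peak in the same span. At least as many MM.1S peaks as the 11 around SSTR4 were found at 2 of the 543, SSTR4 itself and TBC1D3I (12 peaks, chromosome 17), a member of a family of near-identical copies at which read mapping is uncertain. TBC1D3I was named after its values were seen.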
